A study of Rattus norvegicus with 4 samples.

Results

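The genes described here are 38 heat shock proteins and co-chaperones, chosen by name: the HSP110, HSP70, HSP90, small heat shock, DNAJ and BAG families, the co-chaperones of HSP70 and HSP90, the heat shock factors Hsf1 and Hsf2, and 3 mitochondrial chaperones for contrast. Of these, 37 had a row among the 31038 gene rows of the ribosome footprint tables, and all 37 had enough counts to be tested. Hspa1b had no row under that symbol and was not analysed here. Footprints, the stretches of messenger RNA that ribosomes protect, were counted per gene in 4 libraries of cultured rat myocardial cells, all treated with cycloheximide at 0.1 mg/mL to stall ribosomes before lysis. Of these, 2 libraries came from cells given a control siRNA (siNT) and 2 from cells given an siRNA against eIF3m (si3m), a subunit of the translation initiation complex eIF3. The labels call the cells NRVM but derive them from embryonic rat myocardium. They give no age, no time after transfection and no word on separate cultures within a group, so each p-value rests on the spread between these particular samples and may reflect technical spread alone. RNA-seq of the same cells was not analysed here, so a footprint value does not separate the amount of a messenger RNA from its translation.

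HSP70 binds exposed hydrophobic stretches of proteins in a cycle of ATP binding and hydrolysis. J-domain proteins of the DNAJ family bring clients and start hydrolysis, and the HSP110 and BAG proteins exchange the spent nucleotide, which releases the client. HSP90 takes partly folded clients, among them kinases and steroid receptors, from HSP70 with the help of its own co-chaperones, while small heat shock proteins hold unfolded proteins without using ATP. Hsf1 binds heat shock elements, repeats of the unit GAA and its reverse, TTC, in the promoters of many of these genes and raises their transcription under proteotoxic stress. In the heart these proteins are known for protecting myocytes during ischemia and for the upkeep of the sarcomere.

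Total counts were 3924434 and 3835750 in siNT and 8687598 and 6726969 in si3m, so the si3m libraries were deeper. Eif3m itself, the gene targeted, was at 532 and 451 CPM (counts per 1000000, scaled with TMM) in siNT and at 138 and 191 CPM in si3m, 3.01-fold lower (edgeR adjusted p = 3.41e-08, or 0.0522 with robust quasi-likelihood). The label of the cells was checked with 18 cardiomyocyte markers. Only 4 had enough counts to be tested, and Tnni3, Myl7 and Nppa were at 0 in every library. Of the 4, Tnnt2 was 2.38-fold higher in si3m, Ttn 1.56-fold and Pln 2.95-fold lower, and Tnnc1 did not pass the edgeR test. The 18 summed to 131 and 137 CPM in siNT and 124 and 145 in si3m. As a whole this list did not bear out a label of cardiomyocytes. Of 14 fibroblast markers 10 were testable, 8 of them higher and 1 lower in si3m. Dcn, 1 of the 8, had 0 counts in both siNT libraries and 24 and 20 in si3m, and was testable through si3m only. The fibroblast list summed to 11712 and 11606 CPM in siNT and 16427 and 16447 in si3m. The 6 smooth muscle markers summed to 3164 and 3136 CPM in siNT and 3648 and 3717 in si3m, whereas 6 endothelial markers reached at most 5.59 CPM in any library and 6 macrophage markers 9.46 and 11.7 CPM in siNT and 1.41 and 2.17 in si3m. The part of cell composition in the chaperone values was not tested, and fewer cells of a type cannot be told apart from less RNA per cell.

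Promoter sequence was examined because Hsf1 is known to act through such elements at several of the members. RefSeq promoters of the assembly GRCr8, from 250 bases before to 50 after the annotated start, were at hand for 31 members (not for Hspa1b, Hsp90aa1, Cryab, Dnaja2, Dnajb4, St13 and Hsf1). A complete element of 3 units, either GAA, TTC and GAA or TTC, GAA and TTC with any 2 bases between neighbouring units, was present in 6 of these 31 promoters, or 19.4%, against 267 of all 33469 promoters, or 0.798%. The forms with 2 units, GAA then TTC or TTC then GAA, are parts of the longer motifs and were present in 18 of the 31 member promoters and in 15.9% of all promoters. The longer motifs are reverse complements of each other and the shorter ones read the same on either strand, so both strands were covered. The 6 genes were Hsph1, Hspa8, Chordc1, Dnaja1 and the neighbouring pair Hspd1 and Hspe1. The stretches below show the matches in capitals, 5′ to 3′ on the strand of the gene, because these genes include the largest falls of the set as well as genes that did not pass the test. The first 3 end at the last base before the annotated start, and the other 2 are 30 bases just after it.
Hsph1: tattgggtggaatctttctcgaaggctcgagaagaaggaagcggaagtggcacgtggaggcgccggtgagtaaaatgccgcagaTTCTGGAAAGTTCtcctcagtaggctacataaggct
Hspa8: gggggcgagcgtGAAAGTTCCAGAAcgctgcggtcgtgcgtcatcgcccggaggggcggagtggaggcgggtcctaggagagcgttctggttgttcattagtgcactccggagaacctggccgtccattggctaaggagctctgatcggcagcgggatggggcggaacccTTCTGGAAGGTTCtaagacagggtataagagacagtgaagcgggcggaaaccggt
Hspe1: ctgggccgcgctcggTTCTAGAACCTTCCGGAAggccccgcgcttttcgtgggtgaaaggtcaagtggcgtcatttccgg
Chordc1: caaccgGAACGTTCGGGAAGATTCCTGAAg
Dnaja1: ccgggcgGAACTTTCCAGAAcgctcggtgg

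In GRCr8 these stretches are chr12:10427248-10427367 (Hsph1), chr8:50080289-50080513 (Hspa8), chr9:64084247-64084326 (Hspe1), chr8:23650825-23650854 (Chordc1) and chr5:60638406-60638435 (Dnaja1), all on the plus strand; the counts were made on rn6, and no coordinate was carried between the builds. The Hsph1 match lay 36 to 24 bases before the start. Hspa8 held a match at 213 to 201 and another at 55 to 43 bases before its start. Chordc1 held a run of 23 bases with 3 overlapping matches. Hspd1 and Hspe1, the mitochondrial chaperonin and its lid, are read in opposite directions from a shared promoter, and the run of 18 bases found for each is the same stretch of genome. A match describes the letters and does not show that Hsf1 was bound.

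Across the families, 13 of the 37 tested members were lower in si3m and 1 was higher, by edgeR's quasi-likelihood test with a Benjamini-Hochberg adjusted p under 0.05 over all 12672 tested genes. In all, 27.8% of tested genes passed in either direction. As shares, 35.1% of members were lower against 13.9% of all tested genes, and 2.70% were higher against 14.0%. The members were chosen with earlier results of these data known, so this difference in shares is a description and not a test. There were 14 alternative fits, listed with the processing. Those without a library hold 1 library in that group, so their spread comes from the other group alone and their calls only describe. The higher count rests on few libraries: without siNT replicate 1 it was 4 of 37, or 10.8%, against 14.3% of all tested genes, and without siNT replicate 2 it was 3, or 8.11%, against 14.1%. Calls depend on abundance: among genes with at least 100 mean CPM, 37.7% of 2042 were lower and 25.2% higher, and of the 15 members at that level 9 were lower and 1 was higher. The si3m values lay below both siNT values for 18 members, or 48.6%, against 31.3% of all tested genes, and above them for 7, or 18.9%, against 32.6%, while 63.9% of all tested genes had no overlap in either direction. Among the called members Hsph1 and Hspa8 fell by at least 2-fold, against 2.49% of all tested genes, and none rose by that much, against 4.60%. The median log2 fold change was -0.15 over the 37 members and 0.02 over all tested genes. With total count scaling the whole table split into 1428 higher and 2217 lower genes in place of 1771 and 1757, and the members into 1 higher and 14 lower.

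**Figure D1:**
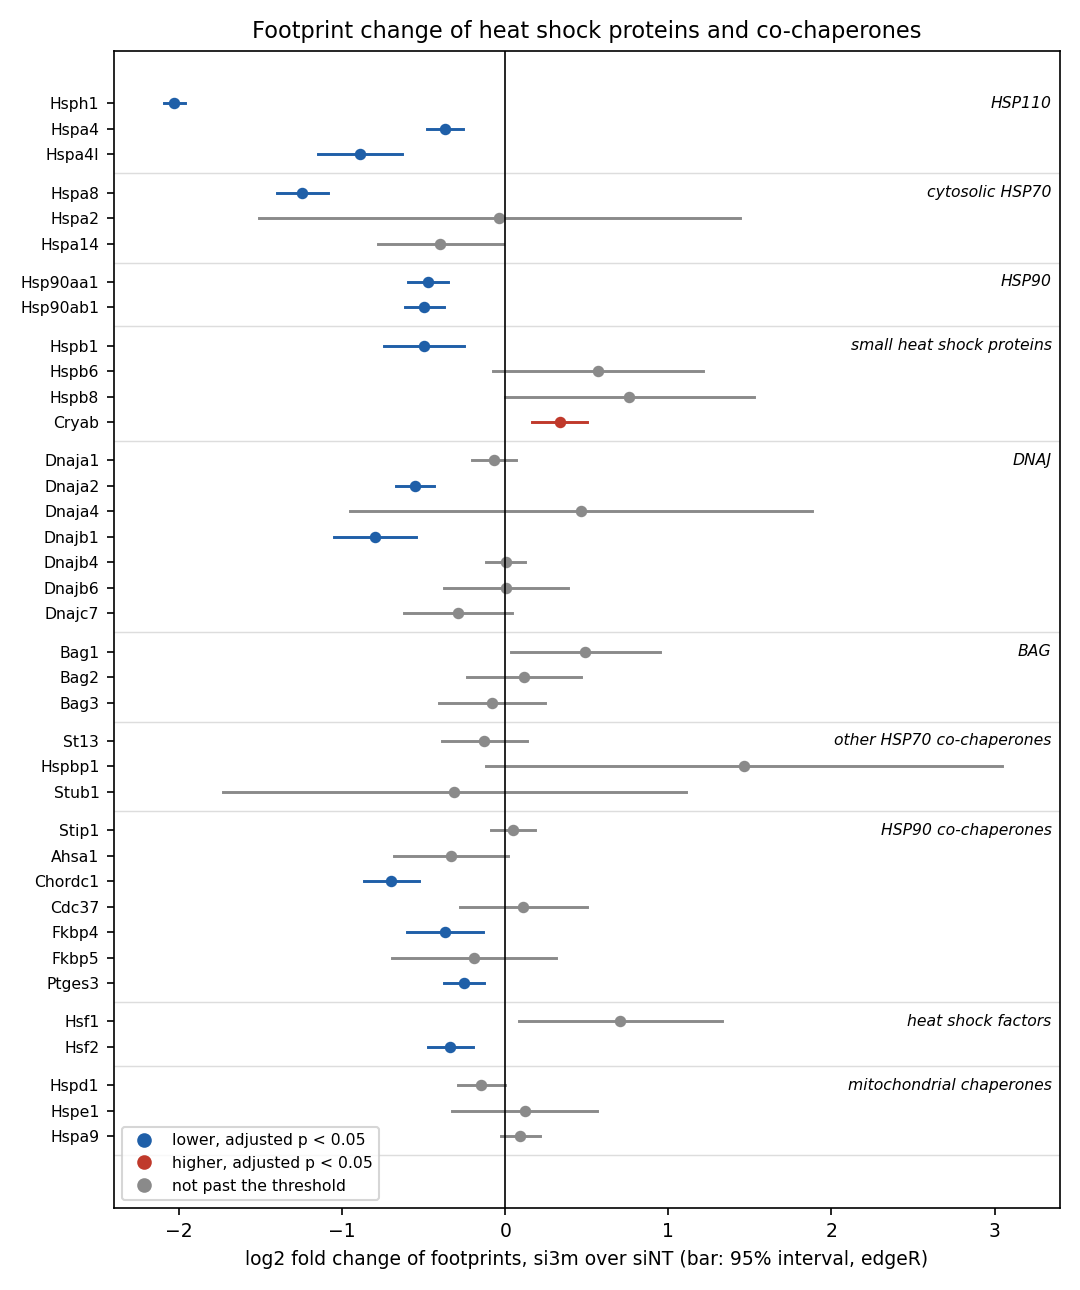
Log2 fold change of footprints in si3m over siNT (x axis) for the 37 tested genes, grouped by family; points are edgeR estimates and bars their 95% intervals. Hsph1 at -2.03 and Hspa8 at -1.24 stand furthest to the left, all 3 HSP110 and both HSP90 genes are lower, Cryab alone is past the threshold on the right, and no mitochondrial chaperone is past it.

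The HSP110 family, which exchanges nucleotide on HSP70, was lower throughout, with 3 of 3 members past the threshold. Hsph1, its stress-inducible member, had 4269 and 4218 CPM in the siNT libraries and 1037 and 1043 CPM in the si3m libraries. The replicates of each group were close together and the groups far apart: the fall was 4.08-fold (log2 -2.03, SE 0.029, adjusted p = 6.30e-17). Of all tested genes, 95 (0.750%) had a log2 value as low or lower. Hspa4l, a relative abundant in testis, had 102 and 101 CPM in siNT and 59.9 and 49.0 CPM in si3m, a 1.85-fold fall (log2 -0.89, SE 0.12, adjusted p = 5.14e-05). Hspa4, the constitutive member, had 738 and 804 CPM in siNT and 601 and 590 CPM in si3m, a 1.29-fold fall (log2 -0.37, SE 0.051, adjusted p = 5.72e-05). The groups did not overlap for any of the 3 genes, but the sizes were unequal. Of all tested genes, 63.9% showed no overlap, 31.3% with si3m below, and 13.9% were called lower. The same shares apply beside the counts of each family below. Within a library, which needs no scaling, Hsph1 had 5.79 and 5.25 times the counts of Hspa4 in siNT and 1.72 and 1.77 times in si3m. With 2 libraries a group the smallest two-sided exact permutation p for such a ratio is 0.333. These ratios are not levels per length and serve only to compare libraries.

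Of the cytosolic HSP70 proteins, the core of the system, 1 of 3 tested members was lower. Hspa8, the constitutive HSP70 that also strips clathrin from vesicles, had 233 and 234 CPM in siNT and 101 and 96.2 CPM in si3m, a 2.37-fold fall (log2 -1.24, SE 0.072, adjusted p = 3.75e-09). Hspa14, which sits near the ribosome exit with a J-domain partner, had 47.8 and 37.1 CPM in siNT and 35.1 and 29.1 CPM in si3m; all si3m values were below all siNT values, but the change did not pass (log2 -0.40, 95% interval -0.78 to -0.02, adjusted p = 0.115). Hspa2, the HSP70 of male germ cells, had 6 and 12 deposited counts in siNT and 12 and 20 in si3m, too few to tell a change (interval -1.51 to 1.44). Hspa1a, the heat-inducible HSP70 and near-identical neighbour of Hspa1b, is no member but had a row with 2 and 6 counts in siNT and 12 and 22 in si3m, below the filter. RefSeq names 33 pseudogene copies of Hspa8, 23 of Hsp90ab1 and 16 of Hsp90aa1. None of them has a row, and how reads with several matches were treated is not given in the sources used here, so the counts of these genes are uncertain.

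Both HSP90 genes fell, and by like amounts. Hsp90ab1, the constitutive form, had 694 and 663 CPM in siNT and 459 and 503 CPM in si3m (1.41-fold lower, log2 -0.50, SE 0.056, adjusted p = 6.54e-06). Hsp90aa1, the stress-inducible form, had 417 and 431 CPM in siNT and 315 and 295 CPM in si3m (1.39-fold lower, log2 -0.48, SE 0.058, adjusted p = 1.44e-05). The groups were separate for each gene, while the ratio of Hsp90ab1 to Hsp90aa1 counts, 1.66 and 1.54 in siNT and 1.46 and 1.71 in si3m, overlapped between the groups.

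**Figure D2:**
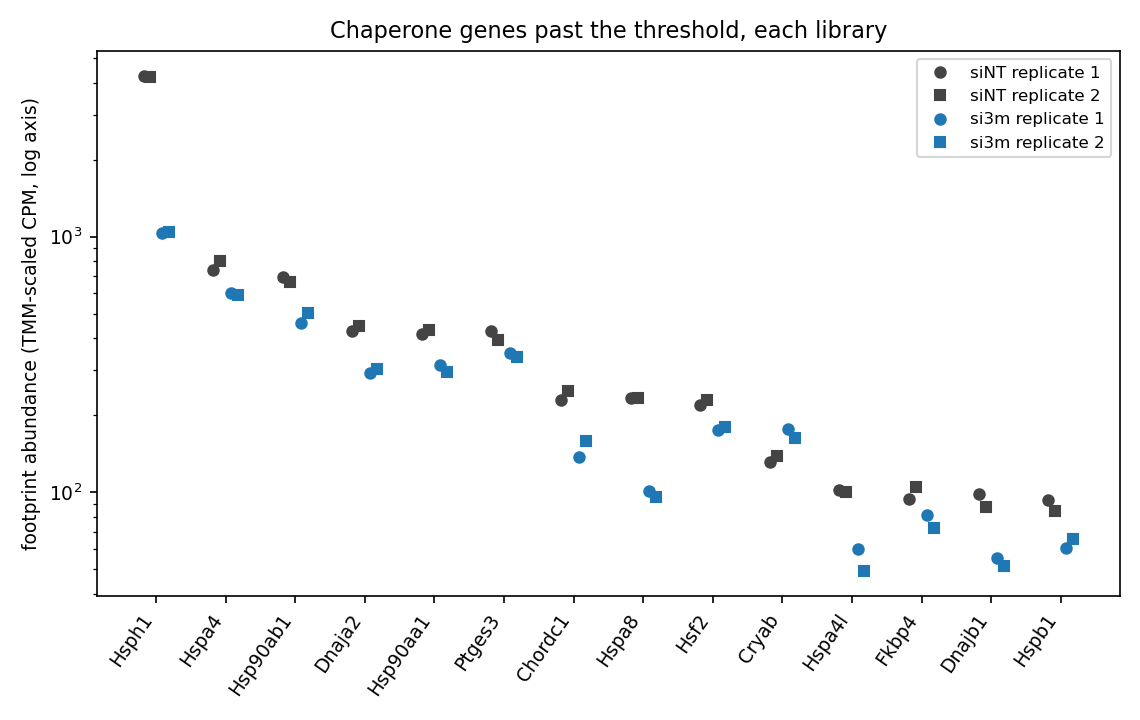
Footprint abundance (TMM-scaled CPM, log axis) in each of the 4 libraries for the 14 members past the threshold, ordered by their siNT mean; dark grey points are siNT and blue points si3m, with circles for replicate 1 and squares for replicate 2. Blue points lie below grey points for 13 genes and above them for Cryab, and the gap is widest for Hsph1, from 4269 and 4218 to 1037 and 1043.

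The small heat shock proteins went in both directions. Hspb1, which binds actin and unfolded proteins, had 93.6 and 84.3 CPM in siNT and 60.5 and 65.6 CPM in si3m (1.41-fold lower, log2 -0.50, SE 0.12, adjusted p = 0.00445). Cryab, the alpha B crystallin of heart and lens, had 131 and 138 CPM in siNT and 176 and 162 CPM in si3m (1.26-fold higher, log2 0.33, SE 0.079, adjusted p = 0.00493). Neither gene's groups overlapped, and the ratio of Hspb1 to Cryab counts within a library was 0.715 and 0.610 in siNT and 0.344 and 0.404 in si3m. Without si3m replicate 1 Cryab was no longer called (adjusted p = 0.0508). Cryab overlaps Hspb2 in the GRCr8 annotation, whose own row held at most 24 counts in a library. Hspb6 and Hspb8, both muscle-rich, reached at most 20.1 and 15.8 CPM in a library and did not pass (log2 0.57, 95% interval -0.08 to 1.21, and log2 0.76, SE 0.36). Over the 14 alternative fits the log2 value of Hspb6 ran from 0.19 to 0.91 and that of Hspb8 from 0.34 to 1.18.

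Of the 7 J-domain proteins, 2 fell and 5 did not pass. Dnajb1, the stress-inducible partner of HSP70 in protein disaggregation, had 98.1 and 87.9 CPM in siNT and 55.3 and 51.4 CPM in si3m (1.74-fold lower, log2 -0.80, SE 0.12, adjusted p = 1.14e-04). Dnaja2, a partner in refolding, had 428 and 447 CPM in siNT and 293 and 303 CPM in si3m (1.47-fold lower, log2 -0.55, SE 0.056, adjusted p = 2.15e-06). Both genes were lower in each si3m library than in each siNT library. The J-domain proteins Dnaja1 and Dnajb4 did not pass. Dnaja1, a partner of HSP70 in folding and import, had 280 and 261 CPM in siNT and 268 and 246 CPM in si3m (log2 -0.07, 95% interval -0.21 to 0.06, adjusted p = 0.444), so the groups overlapped; its promoter holds an element. Dnajb4, known from heart muscle, had 317 and 329 CPM in siNT and 322 and 325 CPM in si3m, and the 95% interval of its log2 fold change ran from -0.12 to 0.12. The ratio of Dnajb1 to Dnaja1 counts was 0.350 and 0.337 in siNT and 0.206 and 0.209 in si3m. Dnajb6, which holds back aggregation of polyglutamine proteins, overlapped between the groups at 29.9 to 38.6 CPM in siNT and 33.9 to 34.7 in si3m. Dnajc7, which binds both HSP70 and HSP90, was at 52.8 and 44.2 CPM in siNT and 41.2 and 38.1 in si3m without passing (adjusted p = 0.189). Dnaja4 had at most 18 counts in a library.

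None of the 3 BAG proteins and none of the 3 other co-chaperones of HSP70 passed the test. With an unadjusted p under 0.05 edgeR would have called 1 of the 6, Bag1, and DESeq2's Wald test called none after adjustment. Bag1, a nucleotide exchange factor that also binds BCL2, was at 25.9 and 17.8 CPM in siNT and 32.5 and 28.8 CPM in si3m. Its change did not pass (log2 0.49, 95% interval 0.03 to 0.95, edgeR adjusted p = 0.105). Its log2 value ran from 0.25 to 0.79 over the 14 alternative fits. Bag3, which guides clients to autophagy in muscle, had 43.8 and 43.7 CPM in siNT and 43.8 and 38.7 CPM in si3m, so that its groups overlapped. Bag2, an inhibitor of the ubiquitin ligase encoded by Stub1, also overlapped, at 43.3 and 40.1 against 40.0 and 50.7 CPM. St13, which keeps HSP70 in its client-holding state, was at 65.7 and 66.1 CPM in siNT and 59.4 and 61.3 CPM in si3m (log2 -0.13, 95% interval -0.39 to 0.13). Stub1, a ligase that marks chaperone clients for the proteasome, and Hspbp1, another exchange factor, had at most 16 and 24 counts in a library, and Hspbp1 reached the low-count filter through the si3m libraries only.

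The co-chaperones of HSP90 divided into 3 that fell and 4 that did not pass. Chordc1, an HSP90-binding protein with zinc-binding CHORD domains, had 230 and 249 CPM in siNT and 137 and 159 CPM in si3m (1.62-fold lower, log2 -0.70, SE 0.079, adjusted p = 6.93e-06). Ptges3, which holds HSP90 in its closed form, had 427 and 395 CPM in siNT and 351 and 339 CPM in si3m (1.19-fold lower, log2 -0.25, SE 0.058, adjusted p = 0.00411). Fkbp4, the immunophilin that favours steroid receptor transport, had 94.1 and 105 CPM in siNT and 81.3 and 72.4 CPM in si3m (1.29-fold lower, log2 -0.37, SE 0.11, adjusted p = 0.0189). For all 3 genes both si3m values were below both siNT values, as for 31.3% of all tested genes. The Fkbp4 call was lost without siNT replicate 2 (log2 -0.28) and without si3m replicate 2 (log2 -0.28). Stip1, the adaptor that hands clients from HSP70 to HSP90, was at 252 and 226 CPM in siNT and 247 and 246 CPM in si3m, and its log2 fold change of 0.05 had a 95% interval of -0.09 to 0.18. The Chordc1 to Stip1 ratio was 0.913 and 1.10 in siNT and 0.555 and 0.644 in si3m. Ahsa1, which speeds the HSP90 ATPase, was at 40.8 and 39.6 CPM in siNT and 32.3 and 31.6 in si3m and did not pass (log2 -0.33, adjusted p = 0.146). Cdc37, the adaptor for kinases, and Fkbp5, the immunophilin that opposes Fkbp4, overlapped between the groups at 26.9 to 33.4 and 17.9 to 25.9 CPM.

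Hsf2, a heat shock factor best known from development, fell 1.26-fold, with 220 and 229 CPM in siNT and 175 and 180 CPM in si3m (log2 -0.34, SE 0.065, adjusted p = 9.91e-04). Hsf1, the main regulator of the stress response, was at 11.4 and 7.11 CPM in siNT and 14.6 and 15.8 CPM in si3m. Those groups did not overlap, in the direction opposite to Hsf2, but the change did not pass (log2 0.71, 95% interval 0.09 to 1.33, adjusted p = 0.0856). The log2 value of Hsf1 ran from 0.41 to 1.09 over the 14 alternative fits.

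Of the 3 mitochondrial chaperones edgeR and DESeq2's Wald test each called none, and with an unadjusted p under 0.05 edgeR would have called 1, Hspd1. Hspa9, the HSP70 of the matrix, had 727 and 829 CPM in siNT and 821 and 837 CPM in si3m (log2 0.09, 95% interval -0.03 to 0.21, adjusted p = 0.248). Its log2 value ran from 0.0036 to 0.20 over the 14 alternative fits. Hspd1 had 251 and 225 CPM in siNT and 208 and 222 CPM in si3m (log2 -0.15, SE 0.068, adjusted p = 0.125). It was called lower under total count scaling (log2 -0.23, edgeR adjusted p = 0.0212). Over all 14 alternative fits the Hspd1 log2 value ran from -0.23 to -0.06. Hspe1 had 20.4 and 22.9 CPM in siNT and 23.8 and 23.2 CPM in si3m (log2 0.12, 95% interval -0.33 to 0.56). For this pair with the shared element neither change passed, and the Hspe1 interval includes the Hspd1 value, so no difference in direction is shown. Hspd1 and Hspe1 also overlap in the GRCr8 annotation, so how reads divide between them is uncertain. The ratio of Hspa8 to Hspa9 counts, the cytosolic against the mitochondrial HSP70, was 0.321 and 0.282 in siNT and 0.123 and 0.115 in si3m, 2.54 times lower on average. RefSeq names 20 pseudogene copies of Hspd1, without rows of their own.

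Summed over all 37 genes with a row, footprints were at 10453 and 10497 CPM in siNT and 6207 and 6233 CPM in si3m, a 1.68-fold lower mean. Hsph1 accounted for 75.3% of that fall, and without it the sums were 6185 and 6280 CPM in siNT and 5171 and 5191 CPM in si3m, 1.20-fold lower. The HSP110 family sum fell from 5109 and 5122 to 1697 and 1681 CPM, mostly through Hsph1. The cytosolic HSP70 sum fell from 282 and 274 to 137 and 128 CPM, mostly through Hspa8. The HSP90 sum fell from 1111 and 1094 to 774 and 798 CPM. The small heat shock proteins summed to 242 and 241 CPM in siNT and 258 and 264 CPM in si3m, with Hspb1 lower and Cryab higher. The mitochondrial sum, 998 and 1077 against 1053 and 1083 CPM, overlapped between the groups. Such sums weigh abundant and long genes most and carry no test.

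**Figure D3:**
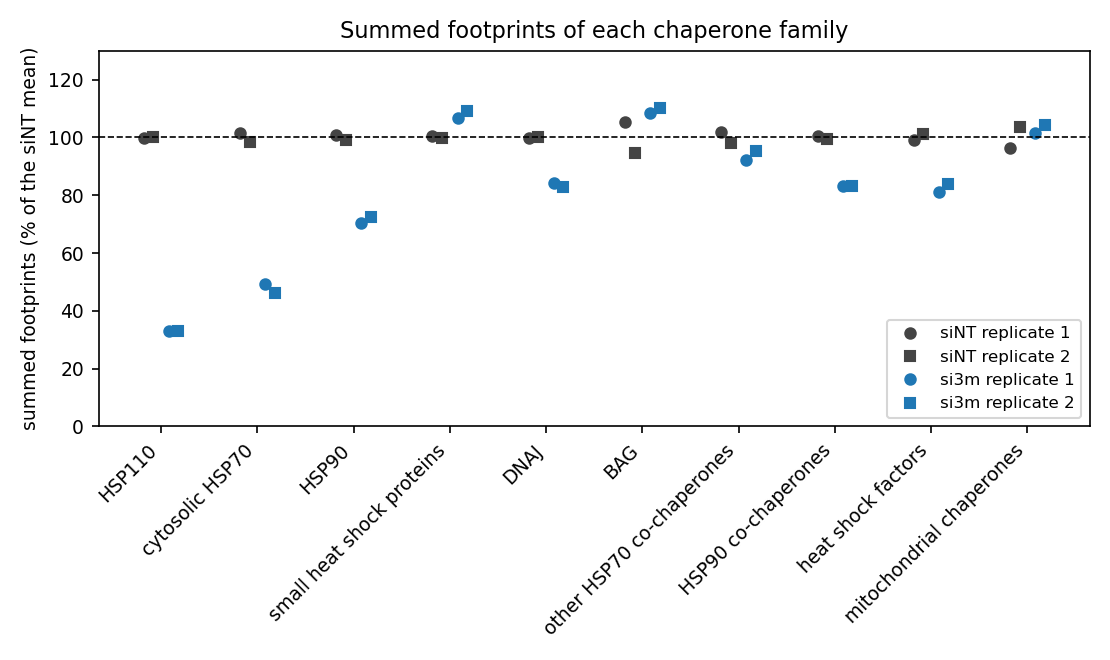
Summed footprints of each family in each library as a percentage of the siNT mean (dashed line at 100); dark grey points are siNT and blue points si3m, with circles for replicate 1 and squares for replicate 2. The HSP110 sum drops furthest, from 5109 and 5122 to 1697 and 1681 CPM, followed by cytosolic HSP70 and HSP90. Hsph1 makes up most of the HSP110 fall and Hspa8 most of the HSP70 fall. The BAG and small heat shock protein points sit above the line in si3m, and the mitochondrial groups overlap.

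Set against the promoters, the 6 genes with a complete heat shock element had log2 fold changes of -2.03 (Hsph1), -1.24 (Hspa8), -0.70 (Chordc1), -0.15 (Hspd1), -0.07 (Dnaja1) and 0.12 (Hspe1). Hsph1 and Hspa8, with the largest falls of the members, carry the element, and 3 of the 6 passed the test. Of the 11 lower members with a promoter, 8 had no complete element in the window, Hspa4l and Dnajb1 with the largest falls among them. A complete element was thus found in 3 of the 11 lower members with a promoter, or 27.3%, and in 3 of the 20 that did not pass, or 15%. Of these last 3, Hspd1 and Hspe1 share the same stretch. The shorter forms with 2 units were present in 7 of the 11 lower members, or 63.6%, and in 11 of the 20, or 55%. Whether the element bears on the changes was not tested.

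**Figure D4:**
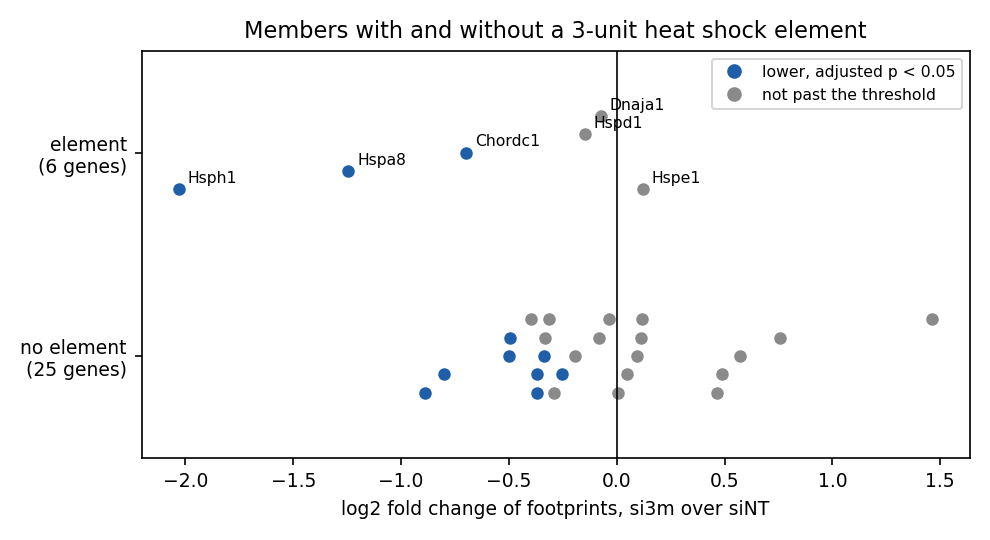
Log2 fold change of footprints in si3m over siNT (x axis) for the 31 members with a promoter sequence, split by whether a complete 3-unit heat shock element lies in the window (rows; vertical offsets only separate points); blue points passed the test as lower and grey points did not pass. Hsph1, Hspa8 and Chordc1 lead the upper row, and Dnaja1, Hspd1 and Hspe1 in the same row lie between -0.15 and 0.12.

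Of a wider list of 72 other chaperone and heat shock genes, 65 were tested. Of these 12, or 18.5%, were higher and 11, or 16.9%, lower, near the 14.0% and 13.9% of all tested genes, and the median log2 fold change was 0.03. Under total count scaling the split was 10 higher and 15 lower, with a median of -0.052. The genes named next all passed the test, so they are not a sample of the abundant genes. Those with at least 50 mean CPM were taken by smallest p, up to 5 per list. Those below 50 mean CPM were added after their values were seen. Among further HSP70 and J-domain genes, 2 of 16 fell and 1 rose. Dnaja3, a mitochondrial J-domain protein, fell 1.63-fold (log2 -0.71, SE 0.12), and Dnajc13, which acts on endosomes, fell 1.51-fold (log2 -0.59, SE 0.081). The less abundant Bag5, another BAG protein, rose 1.62-fold (log2 0.70, SE 0.21), a call lost without siNT replicate 1 (edgeR adjusted p = 0.104) or si3m replicate 1 (0.102). Further HSP90 partners counted 5 of 19 higher and 3 lower. Sugt1, an HSP90 adaptor at the kinetochore, fell 1.29-fold (log2 -0.36, SE 0.082), Fnip1, an inhibitor of the HSP90 ATPase, fell 1.27-fold (log2 -0.34, SE 0.083), and Cdc37l1, a relative of Cdc37, rose 1.25-fold (log2 0.32, SE 0.076). Larger changes in this list were found among its less abundant genes. Ppp5c, a phosphatase bound to HSP90, had 15.9 and 11.7 CPM in siNT and 35.1 and 35.6 CPM in si3m, a 2.55-fold rise (log2 1.35, SE 0.22). Fkbp8, an immunophilin of the mitochondrial outer membrane, had 9.96 and 8.13 CPM in siNT and 21.4 and 20.4 CPM in si3m, a 2.31-fold rise (log2 1.21, SE 0.26). Both kept their call in all 14 alternatives. Nudc, a co-chaperone linked to dynein, fell 2.25-fold (log2 -1.17, SE 0.35), a call lost without siNT replicate 1 (edgeR adjusted p = 0.0769) or si3m replicate 1 (0.121). The Fnip1 call was lost without siNT replicate 2 (adjusted p = 0.128). Of 8 further mitochondrial chaperones and proteases 1 rose and 1 fell. Grpel1, the nucleotide exchange factor of the mitochondrial HSP70, had 29.9 and 21.8 CPM in siNT and 45.2 and 45.8 CPM in si3m, a 1.76-fold rise (log2 0.81, SE 0.18), and Clpx, the unfoldase of a matrix protease, fell 1.49-fold (log2 -0.58, SE 0.10). Of 4 tested genes among further small heat shock proteins and regulators, Hsbp1, which binds Hsf1, rose 1.51-fold and Hspb7, a small heat shock protein of heart muscle, fell 1.55-fold. The Hsbp1 call was lost without si3m replicate 2 (log2 0.45). That of Hspb7 was lost in 6 of the 14 alternatives. It was lost with upper quartile scaling (edgeR adjusted p = 0.0545), without the low-count filter (edgeR, 0.0812) and with DESeq2's Wald test (0.0719). It was also lost without siNT replicate 2 (log2 -0.60), si3m replicate 1 (log2 -0.55) or si3m replicate 2 (log2 -0.68).

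Other genes tied to Hsf1 or proteotoxic stress also split, 4 of 18 higher and 4 lower, beside 14.0% and 13.9% of all tested genes. Sqstm1, the autophagy receptor, had 611 and 659 CPM in siNT and 412 and 398 CPM in si3m (1.57-fold lower, log2 -0.65, SE 0.055, adjusted p = 3.04e-07). Hmox1, heme oxygenase, had 198 and 193 CPM in siNT and 116 and 125 CPM in si3m (1.62-fold lower, log2 -0.70, SE 0.076, adjusted p = 4.47e-06). These losses stood beside gains in the same list. Cct5, a subunit of the chaperonin TRiC, had 335 and 307 CPM in siNT and 487 and 477 CPM in si3m (1.50-fold higher, log2 0.59, SE 0.058, adjusted p = 1.73e-06), and Ier5, an activator of Hsf1, rose 1.53-fold (log2 0.61, SE 0.10). These 4 genes were named because they passed. Their groups did not overlap, as was so for 63.9% of all tested genes.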

How the data were processed

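Ribosome footprints were measured in 4 libraries (siNT and si3m, 2 each). The values are raw gene counts as deposited, without normalization. Per the submitters' processing notes, Trimmomatic 0.40, HISAT2 2.2.1, featureCounts, limma, DESeq2 and rn6 were used; the sources used here do not give their roles, the annotation, the strand setting or the handling of multi-mapped reads. Without strand, reads of overlapping genes are uncertain: 8 members overlap a gene with its own row in GRCr8. Between 94.9% and 97.3% of counts above 0 were even, as if fragments had been counted as 2 reads. Between replicates the median chi-square of fragments (counts divided by 2) was 1.40 (siNT) and 1.48 (si3m) times counting noise, so all libraries were kept.

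Genes were fitted on the whole table with edgeR 4.0.16 in R 4.3.3: filterByExpr (minimum count 10), TMM, glmQLFit and glmQLFTest, two-sided, Benjamini-Hochberg adjustment, threshold 0.05. TMM centres the fold changes, so a change in total translation would not show. Intervals are 95% from the same fit, and each standard error is the fold change over the root of its F statistic. The test was also run on simulated counts with 200 changed genes and a single dispersion shared by all genes. That setting is simpler than these data, so it cannot show how well the p-values are calibrated here. A count of 0 allows 3 fragments (6 counts), or 1.49, 1.52, 0.707 and 0.928 CPM in siNT 1, siNT 2, si3m 1 and si3m 2, for counting error only. Members and lists were chosen with earlier results of these data known. All members are named, with every library's value for those past the threshold or with at least 100 mean CPM; of the wider lists, up to 5 genes each that passed and reached 50 mean CPM (1 of them is not reported here). RefSeq (GRCr8) held 38 of 38 member symbols. Levels per coding length and protein features were planned but not computed, as no protein lengths were used here, so levels are not compared between genes. The alternatives were DESeq2 1.42.0, other scalings, filters, robust fitting, a replicate block, halved or thinned counts and leaving out each library.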

Additional observations from a re-analysis of the deposited data

How the results depend on the processing

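Of the member values under these alternatives, 494 stayed on their side of the threshold, 3 lost their call, 9 gained one and 0 calls reversed. Each of the 14 alternatives gave 12 to 14 lower members, and the 13 lower members stayed lower in each, except Fkbp4 without siNT replicate 2 or si3m replicate 2. Leaving out a library gave 1 to 4 higher members: 4 without siNT replicate 1 and 3 without siNT replicate 2. The members' median log2 fold change of -0.15 moved to -0.23 with total count scaling, -0.20 with at least 50 counts in 2 samples (33 members tested), -0.19 with counts divided by 2 (33 tested), and between -0.20 and -0.12 when a library was left out. The log2 ratio of the summed footprints, -0.75, became -0.76 with DESeq2 size factors, -0.73 with upper quartile and -0.83 with total count scaling. The median of the wider list, 0.03, became -0.052 with total count scaling, which shifts all genes by -0.08. It became 0.044 under upper quartile scaling, 0.052 if no gene was filtered and 0.0086 after thinning to the smallest library, and it lay between 0.012 and 0.061 when a library was left out. The median of the 3 other HSP70 co-chaperones, -0.13, ran from -0.14 to 0.41 when a library was left out. The cause of these shifts was not tested beyond the fewer genes or samples named. The replicate block left 13 members lower and 1 higher, with 1843 genes lower and 1851 higher in all; deviations of libraries with the same number had a correlation of -0.02 over 12672 genes, so the numbers were not taken to pair them. Depth limits Hspa2, Dnaja4, Hspbp1 and Stub1, with at most 24 counts in a library.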
